A study of Homo sapiens with 12 samples.

Results

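Transcripts of 9 genes that encode secreted proteins of the complement system and of the acute-phase response were followed in 786-O, an established cell line from a human clear cell renal carcinoma that lacks functional VHL. The genes were the complement component C3, complement factor B (CFB), complement factor I (CFI), the proteases C1R and C1S, and the inhibitor SERPING1, together with the acute-phase proteins SERPINA1, SERPINA3 and LCN2. They were taken by name from the deposited gene count table, where each of the 9 symbols matched 1 of 58735 genes. They had been chosen by their levels (CPM and fold changes) in all 4 groups, so their levels, fold changes and calls are given as a description with no p-value. A lentiviral vector gave the cells back BBOX1, which carries out the final step of carnitine synthesis, while control cells received the empty vector; both kinds came from drug-selected lines. The labels give neither the promoter of the vector nor whether a line was a clone. The 4 groups, of 3 libraries each, were BBOX1 xenografts, empty-vector xenografts, BBOX1 cells in culture and empty-vector cells in culture. Xenografts grew in NOD SCID gamma (NSG) mice aged 6 to 8 weeks, which lack mature T, B and natural killer cells and keep macrophages and neutrophils. The series title asks about BBOX1 and the growth signalling of TBK1 and mTORC1.

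Complement is a cascade of plasma proteases. In the classical pathway C1R cleaves and activates C1S, which cleaves C4 and C2 to form a convertase. In the alternative pathway CFB supplies the protease of the convertase that cleaves C3, the protein on which the pathways meet. CFI cleaves and inactivates the active fragments of C3 and C4, and SERPING1, the C1 inhibitor, blocks C1R and C1S. SERPINA1 (alpha-1-antitrypsin) and SERPINA3 (alpha-1-antichymotrypsin) inhibit proteases that neutrophils release, and LCN2 binds bacterial siderophores. The liver is the main source of most of these proteins, and inflamed or injured kidney epithelium makes several of them, including C3 and LCN2.

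Total counts per library lay between 13729031 and 26758712. BBOX1 itself had 1271, 1372 and 1894 CPM (counts per 1000000) in BBOX1 xenografts, against 0.666, 0.327 and 0.826 CPM in empty-vector xenografts. It averaged 1079 ± 14.3 CPM in BBOX1 cells (SD, n = 3), against 0 counts in each empty-vector cell library, so the labels held in every library. All 8 markers of renal carcinoma cells, among them PAX8, CDH6 and VIM, were at 1 CPM or more in each group. Replicate 1 of the BBOX1 xenografts stood apart from the other 2: a chi-square of counts per degree of freedom was 45.9 and 45.6 against them and 9.41 between them. Whether replicates came from separate cultures or animals is not in the labels. The p-values then measure only how these libraries spread, and that spread may be technical. CPM were scaled by TMM over the 12 libraries, and levels of different genes were compared only in TPM, a transcript measure that also divides by exon length.

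Promoters were read for the genes on which the results turn: SERPINA1, of the 9 the one whose transcript differed most between BBOX1 and empty-vector xenografts, and CFB and LCN2, whose transcripts were near 0 in culture. Each window is the 250 bases before a RefSeq start site (GRCh38.p14), printed 5′ to 3′ on the strand of the gene. SERPINA1 has a pair of listed starts. Capitals mark matches to short binding motifs, searched on both strands.
CFB, chr6:31945845-31946094, plus strand: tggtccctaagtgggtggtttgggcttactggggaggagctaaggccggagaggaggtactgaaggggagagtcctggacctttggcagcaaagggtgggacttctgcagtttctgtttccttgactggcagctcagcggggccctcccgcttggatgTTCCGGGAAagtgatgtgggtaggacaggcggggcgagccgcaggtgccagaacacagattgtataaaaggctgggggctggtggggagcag
LCN2, chr9:128149203-128149452, plus strand: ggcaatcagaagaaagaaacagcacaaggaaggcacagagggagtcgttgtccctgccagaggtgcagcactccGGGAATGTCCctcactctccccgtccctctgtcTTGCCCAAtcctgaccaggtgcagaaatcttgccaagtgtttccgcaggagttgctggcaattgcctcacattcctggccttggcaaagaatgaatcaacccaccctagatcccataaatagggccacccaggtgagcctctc
SERPINA1 upstream start, chr14:94390636-94390885, minus strand: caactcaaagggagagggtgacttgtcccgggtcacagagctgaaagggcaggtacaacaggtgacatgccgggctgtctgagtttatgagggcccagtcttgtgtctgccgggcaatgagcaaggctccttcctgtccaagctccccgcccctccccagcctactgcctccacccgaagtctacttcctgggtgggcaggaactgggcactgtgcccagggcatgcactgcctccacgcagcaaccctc
SERPINA1 downstream start, chr14:94388603-94388852, minus strand: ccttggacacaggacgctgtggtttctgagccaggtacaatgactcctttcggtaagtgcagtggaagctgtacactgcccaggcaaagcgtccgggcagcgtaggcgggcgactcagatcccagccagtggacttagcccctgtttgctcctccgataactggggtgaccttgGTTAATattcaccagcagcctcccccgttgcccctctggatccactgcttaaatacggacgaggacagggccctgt

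The motifs searched were GGGAA and CC set 3 bases apart for NF-kappaB, TTCNNNGAA for STAT factors and TTGCNNAA for C/EBP factors. Also searched were GTTAAT, a part of the HNF1 site, and ACGTG, the core of the hypoxia response element. In the order given, all these motifs are contained in 6.02%, 6.57%, 9.05%, 6.23% and 18.5% of 35114 promoter windows of this length. The CFB window held a match for STAT, TTCCGGGAA, at bases -92 to -84 from the start. The LCN2 window held GGGAATGTCC for NF-kappaB at -176 to -167 and TTGCCCAA for C/EBP at -143 to -136. The window of the downstream SERPINA1 start held GTTAAT at -76 to -71, and that of the upstream start held no match. These are matches of letters and not measured binding sites. Of the others, windows were read for C1R, CFI and SERPINA3. C1R had matches for C/EBP in both of its windows, and 1 of these windows also held matches for STAT and HNF1. That HNF1 match was ATTAAC, which is GTTAAT on the other strand, at -111 to -106. CFI had ATTAAC for HNF1 at -248 to -243, and SERPINA3 had 1 match for NF-kappaB.

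On the scale of TPM, 2 transcripts made up most of the summed level of the 9 genes in every library. C3 led in BBOX1 xenografts with 289 ± 92.3 TPM (SD, n = 3), and SERPINA1 followed with 169.6 ± 6.83 TPM. In empty-vector xenografts the order was turned round: SERPINA1 led with 621 ± 118 TPM and C3 followed with 257 ± 31.1 TPM. The libraries of the 2 genes did not overlap in either group. SERPINA1 took 29.6% of the summed TPM in BBOX1 xenografts (24.3% to 35.0% by library), against 61.0% in empty-vector xenografts (57.0% to 65.9%). In culture SERPINA1 led in both groups, with 44.5 ± 1.16 TPM in BBOX1 cells and 52.7 ± 2.27 TPM in empty-vector cells. It made up 75.7% of the summed TPM in BBOX1 cells and 81.7% in empty-vector cells.

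C1S and then C1R came next in both kinds of xenograft and overlapped each other. C1S averaged 58.1 ± 9.07 TPM in BBOX1 xenografts and 52.1 ± 5.69 TPM in empty-vector xenografts, and C1R averaged 40.3 ± 9.71 and 45.9 ± 4.37 TPM in the same order of groups. CFI followed in xenografts, with 14.2 ± 1.67 TPM in BBOX1 and 19.8 ± 4.37 TPM in empty-vector tumours. In culture CFI stood higher in the order, at 5.08 ± 0.110 TPM in BBOX1 cells and 4.85 ± 0.339 TPM in empty-vector cells. It lay below C3 in BBOX1 cells (6.91 ± 0.171 TPM) and overlapped with C3 in empty-vector cells (4.39 ± 0.577 TPM). LCN2, CFB, SERPING1 and SERPINA3 were lower still, with 8.66, 5.27, 0.539 and 0.0850 TPM in BBOX1 xenografts in that order of genes. The 9 genes together summed to 585 TPM in BBOX1 xenografts, 1013 TPM in empty-vector xenografts, 58.8 TPM in BBOX1 cells and 64.5 TPM in empty-vector cells, means over 3 libraries each scaled to its own total.

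**Figure D1:**
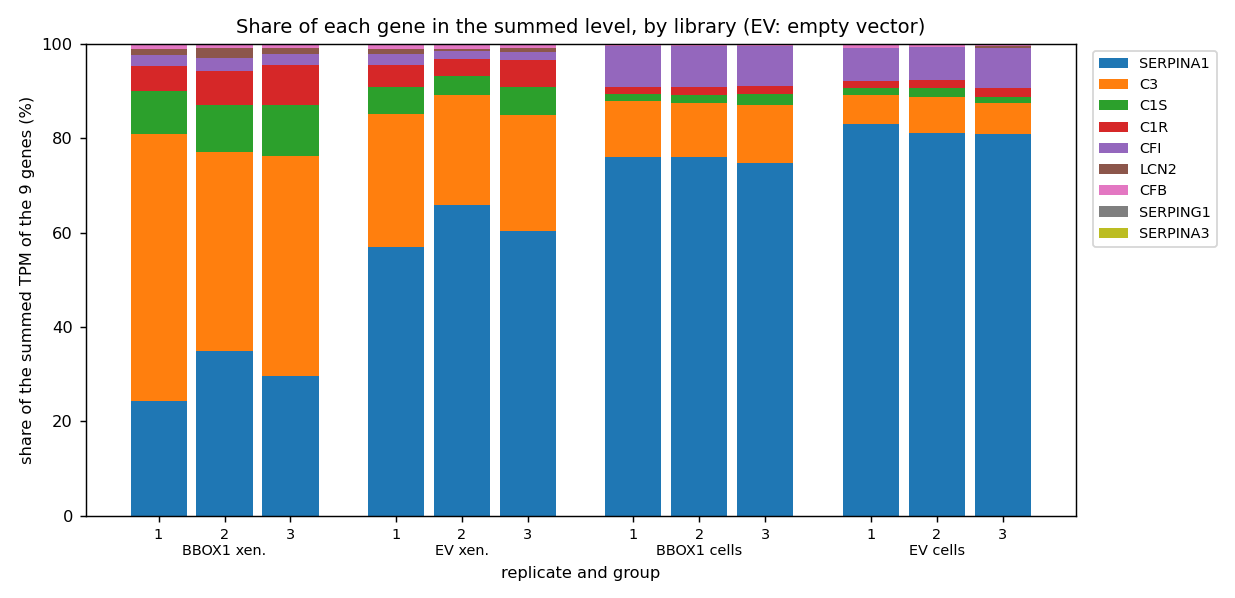
Share of each gene in the summed TPM of the 9 genes (vertical axis, percent) for each library, with groups from BBOX1 xenografts at the left to empty-vector (EV) cells at the right. SERPINA1 takes 24.3% to 35.0% in BBOX1 xenografts, below its 57.0% to 65.9% in empty-vector xenografts and its share in culture.

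Every one of the 9 transcripts was higher in xenografts than in culture, with either vector. The 3 xenograft libraries lay above the 3 culture libraries for 9 of 9 genes with BBOX1, where 37.8% of all genes tested did so, and for 9 of 9 with the empty vector, where 36.9% did. The shares are over genes that passed the filter on low counts. The 9 include some that did not pass: SERPING1 and SERPINA3 with BBOX1, and SERPINA3 with the empty vector. The fit called 7 of the 7 genes that passed its filter on low counts higher with BBOX1, beside 36.1% of all genes tested, and 8 of 8 with the empty vector, beside 35.5%. Since the levels chose the genes, nothing is read from these counts. In bulk RNA, fewer cells of a type and less RNA per cell cannot be told apart.

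Among the proteases of the classical pathway, C1R had 61.9, 75.7 and 118 CPM in BBOX1 xenografts and 91.4, 78.1 and 101 CPM in empty-vector xenografts. It had 1.41, 1.62 and 1.51 CPM in BBOX1 cells and 1.43, 1.68 and 1.83 CPM in empty-vector cells. Xenografts and cultures thus did not approach each other, while the 2 vectors overlapped in both settings. The log2 fold change of xenograft over culture was 5.84 (SE 0.28) with BBOX1 and 5.77 (SE 0.14) with the empty vector, or 57.1-fold and 54.6-fold. C1S, its substrate, had 116, 118 and 164 CPM in BBOX1 xenografts and 124, 94.3 and 119 CPM in empty-vector xenografts, against 1.41, 1.68 and 2.20 CPM in BBOX1 cells and 1.61, 1.92 and 1.25 CPM in empty-vector cells. Its log2 fold change was 6.29 (SE 0.22) with BBOX1 and 6.18 (SE 0.16) with the empty vector. The exons of C1R share 672 bases with C1RL and those of C1S share 229 with EMG1, both on the same strand, and how reads in shared exons were counted is not given in the sources used here.

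SERPING1, which inhibits both proteases, was close to its limit of detection. It had 8, 2 and 22 counts in BBOX1 xenografts and 14, 17 and 12 counts in empty-vector xenografts. In culture it had 1 count over the 3 BBOX1 libraries and 3 counts over the 3 empty-vector libraries. The ratio of summed levels, xenograft over culture, was 43.8 (95% interval 7.31 to 1783) with BBOX1 and 15.9 (5.10 to 80.3) with the empty vector. All 3 empty-vector culture counts lay in replicate 3 and the BBOX1 count in replicate 1. Without those libraries culture was at 0. Set against a floor of 3 counts over the culture libraries left, the ratio for SERPING1 was 8.18 in BBOX1 xenografts and 9.54 in empty-vector xenografts. Ratios to this floor leave out the error of the xenograft counts and are not lower limits. The intervals above, from an exact binomial on counts summed over libraries, include counting error alone and leave out the spread between libraries. Reads that carry no molecular identifier are not independent molecules, so the counting error itself may be larger.

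C3 had 940.4, 639 and 911 CPM in BBOX1 xenografts and 788, 714 and 629.8 CPM in empty-vector xenografts. It had 14.9, 14.4 and 15.0 CPM in BBOX1 cells and 8.33, 10.6 and 8.64 CPM in empty-vector cells. The 6 xenograft libraries were therefore all far above the culture libraries, and in culture the BBOX1 libraries lay above the empty-vector ones. The log2 fold change of xenograft over culture was 5.83 (SE 0.18) with BBOX1 and 6.29 (SE 0.12) with the empty vector.

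CFB had 10.4, 7.81 and 9.0 CPM in BBOX1 xenografts, against 17.9, 16.5 and 11.8 CPM in empty-vector xenografts. In culture it had only 6, 6 and 4 counts in BBOX1 cells and 11, 8 and 2 counts in empty-vector cells. Xenograft over culture, this gave log2 5.10 (SE 0.27) with BBOX1 and 5.33 (SE 0.35) with the empty vector. CFB shares 23 exon bases with its neighbour C2 and 2249 of its 4997 with a readthrough gene that had 0 counts. How reads in shared exons were counted is not known, so the 0 does not show that CFB lost no reads.

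CFI, the inactivating protease, had the smallest fitted change between the settings. It had 23.1, 24.6 and 25.3 CPM in BBOX1 xenografts, against 39.6, 31.3 and 25.5 CPM in empty-vector xenografts. In culture it held a narrow range, 6.38, 6.5 and 6.16 CPM in BBOX1 cells and 5.54, 5.81 and 6.46 CPM in empty-vector cells. The log2 fold change of xenograft over culture was 1.96 (SE 0.12) with BBOX1 and 2.44 (SE 0.16) with the empty vector. It shares 1562 of its 4875 exon bases with an overlapping protein-coding gene that had 2 counts in all, with the same limit as for CFB.

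Of the acute-phase proteins, SERPINA1 had 237, 312 and 339 CPM in BBOX1 xenografts, against 938, 1185 and 904 CPM in empty-vector xenografts. It had 56.6, 57.2 and 53.9 CPM in BBOX1 cells, against 66.0, 66.3 and 62.2 CPM in empty-vector cells. The 4 groups were thus fully separated from one another. Xenograft over culture, the log2 fold change was 2.42 (SE 0.14) with BBOX1 and 3.97 (SE 0.11) with the empty vector, or 5.36-fold and 15.7-fold. SERPINA3, which lies on the same arm of chromosome 14, was almost undetected: 4, 1 and 1 counts in BBOX1 xenografts, 1, 4 and 4 counts in empty-vector xenografts, and 0 in the 6 culture libraries. Set against a floor of 3 counts (over a culture group), its ratio was 2.74 in BBOX1 xenografts and 3.34 in empty-vector xenografts. These ratios leave out the error of the few xenograft counts and are not lower limits. SERPINA3 shares 1592 of its 5007 exon bases with an overlapping gene on the same strand that had 13 counts in all. How reads in shared exons were counted is not known, so its low counts need not mean that the transcript was absent.

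LCN2 had 3.84, 6.24 and 4.72 CPM in BBOX1 xenografts and 5.06, 2.51 and 4.13 CPM in empty-vector xenografts. In culture it had 1 count over the BBOX1 libraries and 3 over the empty-vector libraries, the same libraries and counts as SERPING1. The ratio of summed levels, xenograft over culture, was 302 (95% interval 53.7 to 11997) with BBOX1 and 71.2 (24.0 to 348) with the empty vector. Without those single libraries its ratio to the same floor was 56.5 in BBOX1 xenografts and 42.6 in empty-vector xenografts. As for SERPING1, these ratios are not lower limits. At this depth no difference in LCN2 between the 2 cultures was detectable.

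**Figure D2:**
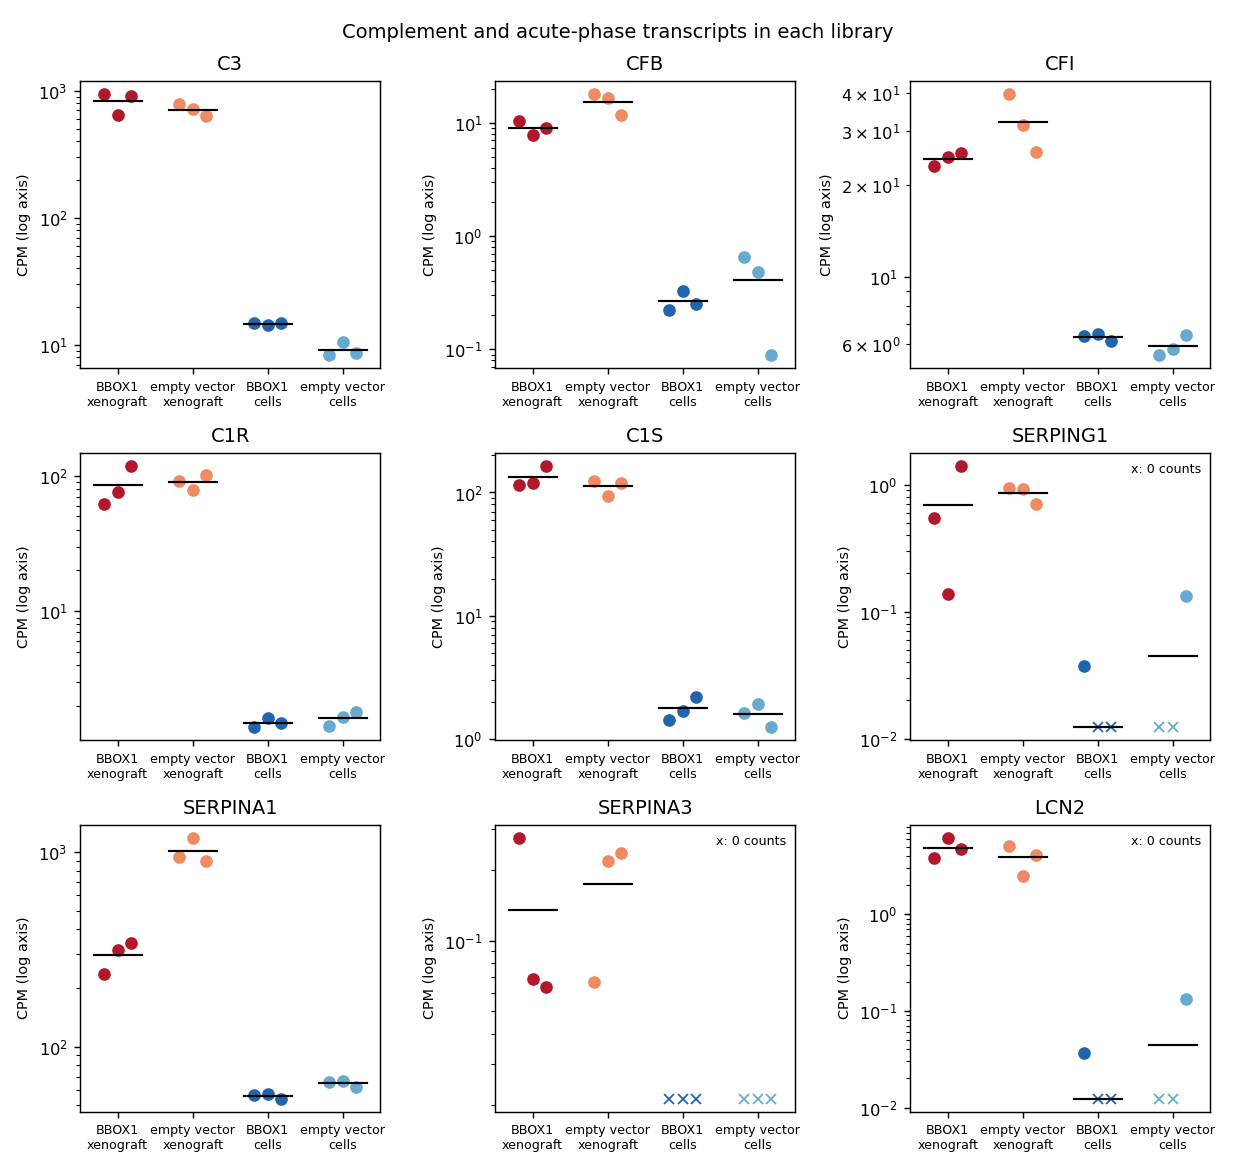
Level of each of the 9 genes in CPM (log axis) in every library, by group, with a bar at the mean of 3 libraries and a cross for a library with 0 counts. For each gene the xenograft libraries lie above the culture libraries, and SERPINA1 is the gene with 4 separate groups, at 237 to 339 CPM in BBOX1 xenografts and 904 to 1185 CPM in empty-vector xenografts.

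Within xenografts, SERPINA1 was the 1 of the 9 genes that the fit called between the vectors, beside 5.54% of all genes tested in either direction and 3.63% lower. It was lower with BBOX1 by 3.39-fold, a log2 fold change of -1.76 (SE 0.17), and it kept its call with each xenograft library left out, at -1.87 to -1.63. CFB and CFI also had no overlap between the groups and were lower with BBOX1, at log2 -0.76 (SE 0.20) and -0.40 (SE 0.16), but were not called. With SERPINA1 that made 3 genes without overlap, all lower, beside 15.4% of all genes tested that were lower in this way. CFB was called without replicate 1 of the BBOX1 xenografts (-0.87), without replicate 3 of the empty-vector xenografts (-0.92), with DESeq2, with no filter on low counts and in a fit of all 12 libraries, the last of which also called CFI.

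The other 5 genes tested overlapped between BBOX1 and empty-vector xenografts. C3 and C1S had log2 fold changes of 0.23 (SE 0.17) and 0.25 (SE 0.16), and LCN2 had 0.35 (SE 0.31). C1R had -0.08 (SE 0.21) and SERPING1 -0.27 (SE 0.62). These 5 differences were each under 2 standard errors, and SERPINA3 had too few counts to be fitted.

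In culture 5 of the 9 genes had enough counts, and 2 were called, 1 higher and 1 lower, beside 16.4% of all genes tested (8.53% higher and 7.86% lower). C3 was higher in BBOX1 cells, at 14.8 ± 0.304 CPM against 9.19 ± 1.23 CPM in empty-vector cells (SD, n = 3 each; log2 0.69, SE 0.11). SERPINA1 was lower in BBOX1 cells, at 55.9 ± 1.76 CPM against 64.8 ± 2.27 CPM in empty-vector cells (log2 -0.21, SE 0.05). Both were without overlap between the groups, as were 31.0% of all genes tested. CFI, C1R and C1S overlapped, with log2 fold changes of 0.09 (SE 0.14), -0.14 (SE 0.28) and 0.14 (SE 0.28). In a fit of all 12 libraries, which uses 1 spread for cells and xenografts, neither gene was called.

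The difference between the settings, the log2 effect of BBOX1 in xenografts minus that in culture, was called for SERPINA1, beside 5.19% of all genes tested (3.26% lower). It was -1.56 (SE 0.18), and -1.67 to -1.43 with each of the 12 libraries left out. C3 had -0.46 (SE 0.20) and CFI -0.49 (SE 0.21), neither called; C3 was called without replicate 1 of the BBOX1 xenografts, at -0.58, and with no filter on low counts, at -0.50. For C1R the difference was 0.06 (SE 0.38), for C1S 0.11 (SE 0.32) and for CFB -0.23 (SE 0.66). The fitted values of SERPING1 and LCN2 rest on 1 and 3 culture counts and changed sign without replicate 3 of the empty-vector cells.

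**Figure D3:**
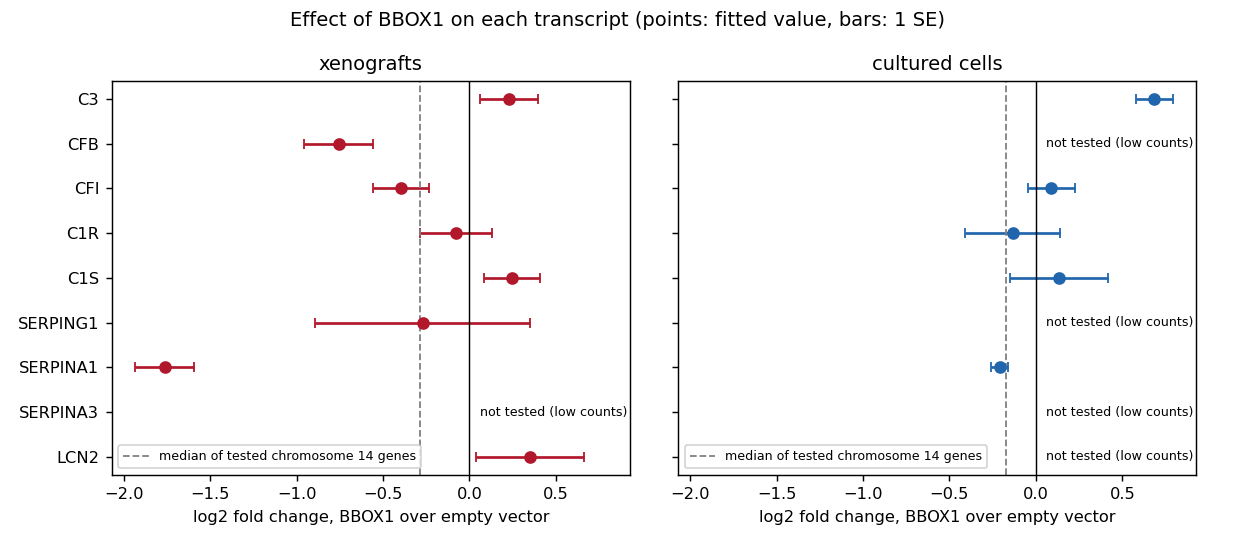
Log2 fold change of BBOX1 over empty vector for each of the 9 genes (horizontal axis; points with bars of 1 SE), in xenografts at the left and cultured cells at the right, with a dashed line at the median of tested chromosome 14 genes. SERPINA1 lies at -1.76 in xenografts and -0.21 in culture, and C3 at 0.23 and 0.69.

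SERPINA1 and SERPINA3 lie on chromosome 14, at 94376747-94390693 and 94612377-94624055 (GRCh38, GENCODE 29), in a cluster of clade A serpins. Genes of this chromosome were lower with BBOX1 more often than others. In xenografts 68 of 500 tested genes of chromosome 14 fell (13.6%, median log2 -0.28 as against 0.02 elsewhere), beside 3.31% of those on other chromosomes. In culture 164 of 464 fell (35.3%, median -0.17), beside 6.98% elsewhere. The SERPINA1 value in culture, -0.21, lay near this median and its value in xenografts, -1.76, well below it; the part of the chromosome in either was not tested.

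Tested neighbours within 1000000 bases had values of both signs in xenografts, from log2 -1.63 for CLMN to 0.39 for SERPINA12. Most were below 0. UNC79, PPP4R4 and PRIMA1 had -0.81, -0.66 and -0.43, and OTUB2 and IFI27 had 0.01 and 0.02, none of them called. In xenografts SERPINA5, the protein C inhibitor, was lower with BBOX1, at 8.02 ± 1.78 CPM against 16.0 ± 1.34 CPM with the empty vector (log2 -0.99, SE 0.19, adjusted p = 0.0165 by edgeR's quasi-likelihood test). That call was lost without replicate 2 or 3 of the BBOX1 xenografts or replicate 1 or 2 of the empty-vector xenografts (adjusted p = 0.0505 to 0.095). CLMN, which encodes calmin and is named here after its value was seen, had log2 -1.63 (SE 0.27, adjusted p = 0.00906), and was not called without replicate 3 of the BBOX1 xenografts (adjusted p = 0.0641). SERPINA6, which encodes the cortisol carrier, had 0.10 (SE 0.21, adjusted p = 0.797), and SERPINA4 had -1.10 (SE 0.47, adjusted p = 0.179); SERPINA4 and SERPINA5 overlap, and reads of the pair may be split. DICER1 had -0.12 (SE 0.16, adjusted p = 0.682) in xenografts. In culture DICER1 was lower with BBOX1, at -0.20 (SE 0.05, adjusted p = 0.00304), beside -0.21 (SE 0.05) for SERPINA1. The other neighbours tested in culture were not called.

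**Figure D4:**
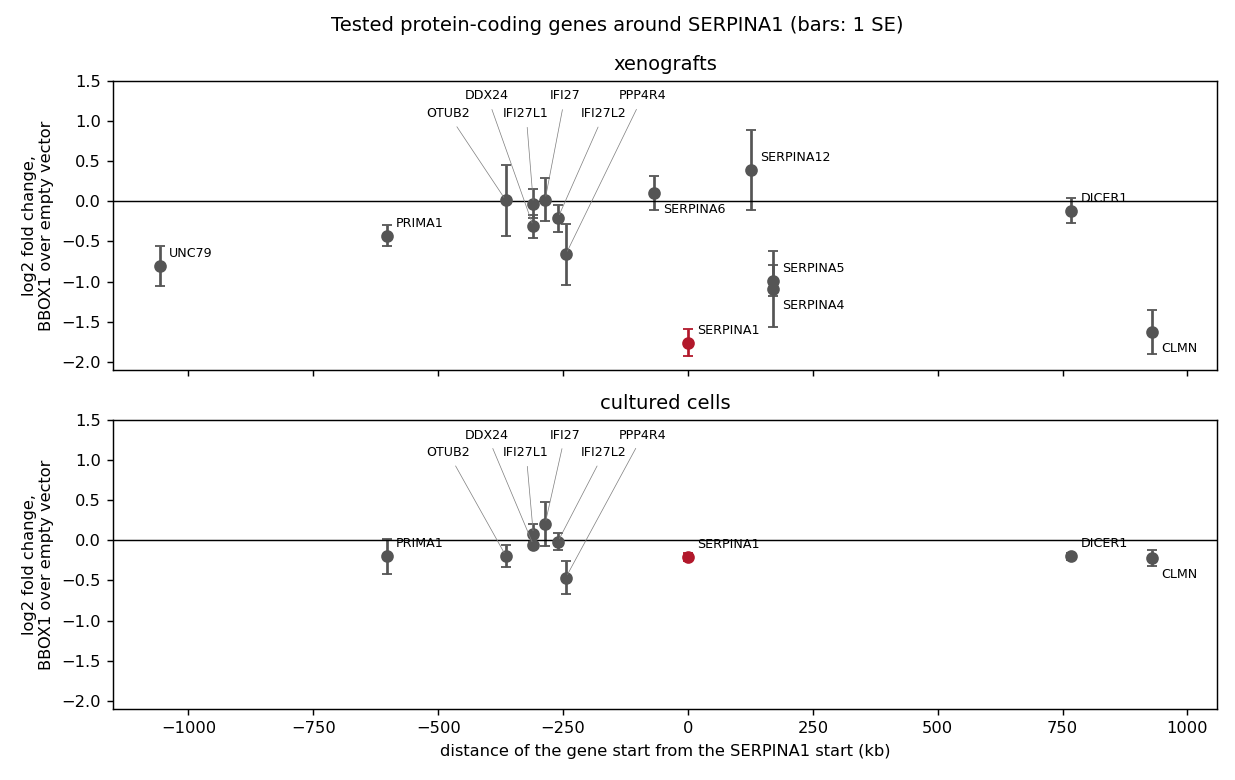
Log2 fold change of BBOX1 over empty vector (vertical axis, bars of 1 SE) of tested protein-coding genes against the distance of their start from that of SERPINA1 in kilobases, for xenografts above and cultured cells below. In xenografts SERPINA1 (-1.76) and CLMN (-1.63) lie lowest, while SERPINA6 (0.10) and DICER1 (-0.12) lie near 0.

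Of other complement and acute-phase genes, 122 in 8 lists, 64 were tested between xenografts and culture with BBOX1 and 68 with the empty vector. With BBOX1, 39 of the 64 rose and 11 fell, beside 36.1% and 32.1% of all genes tested, and with the empty vector 43 of the 68 rose and 12 fell, beside 35.5% and 33.1%. Their median log2 fold changes were 1.06 with BBOX1 and 0.97 with the empty vector, beside medians over all genes of 0.07 and 0.04. The 2 comparisons share no library, but they read the same lists, which were chosen with earlier results of these data known. Some genes, such as C2 and C6 with 13 and 7 counts in BBOX1 cells, passed the filter only through the xenografts. Such genes could hardly be called lower, so the counts of these lists are a description.

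Among 18 initiators and convertase parts, 5 of 8 tested genes rose with BBOX1 and 7 of 9 with the empty vector, beside 36.1% and 35.5% of all genes tested. C4A, a C1S substrate, averaged 80.7 ± 33.5 CPM in BBOX1 xenografts and 0.933 ± 0.0834 CPM in BBOX1 cells (log2 6.45, SE 0.40, adjusted p = 3.23e-06). C4A and C4B are near-identical copies whose reads may be split between them, and C4B also rose with both vectors. C1QA, C1QB and C1QC, which with C1R and C1S form the C1 complex, had 0 counts in BBOX1 xenografts and 1 count in all in empty-vector xenografts.

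Complement inhibitors rose in 4 of 6 tested genes and fell in 1 with each vector. CLU, which blocks the terminal complex, averaged 594 ± 80.1 CPM in BBOX1 xenografts and 15.7 ± 1.00 CPM in BBOX1 cells (log2 5.26, SE 0.14, adjusted p = 7.34e-08). With the empty vector CLU had log2 4.53.

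Among 7 terminal components 3 of 3 tested genes rose with BBOX1, beside 36.1% of all genes tested. These were C6, C8G and C5, at log2 5.27, 2.31 and 0.46. With the empty vector C5 had -0.05 (adjusted p = 0.742) and C8G 0.77 (adjusted p = 0.0907). C6 had too few counts there for the fit, with 61 counts in empty-vector xenografts and 1 in empty-vector cells, a ratio of 67.8 (95% interval 11.7 to 2722) with no overlap between the groups. The test of the difference between the vectors did not pass for C5 (log2 0.50, adjusted p = 0.138), C6 (-0.40, 0.864) or C8G (1.53, 0.182). The C5 call was lost with no filter (adjusted p = 0.125) and without replicate 2 or 3 of the BBOX1 cells or replicate 1 of the BBOX1 xenografts (adjusted p = 0.0656 to 0.111). Complement receptors were split: ITGAM rose and ITGB2 fell with both vectors, and C5AR1 rose with BBOX1 at 1.99 ± 0.632 CPM in xenografts and 0.212 ± 0.102 CPM in cells. With the empty vector C5AR1 did not pass the filter, at 62 counts in xenografts and 14 in cells. The ratio was 4.9 (95% interval 2.7 to 9.5), and the groups overlapped. Its difference between the vectors was not called (log2 0.85, adjusted p = 0.637, edgeR).

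Of 26 acute-phase proteins 9 passed the filter with BBOX1 and 13 with the empty vector. Of those tested 8 of 9 rose with BBOX1 and 11 of 13 with the empty vector, beside 36.1% and 35.5% of all genes tested. The others had too few counts to be tested. CP, the ferroxidase ceruloplasmin, averaged 872 ± 228 CPM in BBOX1 xenografts and 50.4 ± 1.98 CPM in BBOX1 cells (log2 4.13, SE 0.20, adjusted p = 8.62e-07), and SERPINF2, the plasmin inhibitor, had log2 4.49. SAA1 averaged 39.6 ± 5.42 CPM in empty-vector xenografts and 0.677 ± 0.41 CPM in empty-vector cells (log2 5.90, SE 0.23, adjusted p = 5.11e-10); SAA1 and SAA2 are close copies. CRP and HP, classical liver products, had no more than 3 counts in any group. LRP2, a receptor that takes up LCN2, had 0 counts in culture. Its ratio to a floor of 3 counts over a culture group was 38.8 in BBOX1 xenografts and 34.5 in empty-vector xenografts, which again leaves out the error of the xenograft counts.

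Upstream genes of the acute-phase response moved both ways: 12 of 29 rose and 9 fell with BBOX1, close to the 36.1% and 32.1% of all genes tested, and 16 rose and 9 fell with the empty vector, beside 35.5% and 33.1%. Their median log2 fold change was 0.04 with BBOX1, against 0.07 over all genes, and 0.34 with the empty vector, against 0.04. CEBPD, a transcription factor of the response, averaged 197 ± 37.8 CPM in BBOX1 xenografts and 37.5 ± 1.89 CPM in BBOX1 cells (log2 2.41, SE 0.14, adjusted p = 2.31e-06), and with the empty vector had log2 2.36. IL6, an inducing cytokine named here after its values were seen, averaged 9.88 ± 3.06 CPM in BBOX1 xenografts and 1.15 ± 0.285 CPM in BBOX1 cells (log2 3.08, SE 0.29, adjusted p = 2.91e-05). The cytokine TNF, named in the same way, had log2 4.89 (SE 0.49, adjusted p = 3.68e-05, edgeR) with BBOX1, from 14, 3 and 1 counts in BBOX1 cells. IL6ST, a receptor chain for cytokines of the IL6 family, went the other way. It had 72.2, 48.5 and 55.7 CPM in BBOX1 xenografts, against 128, 132 and 127 CPM in BBOX1 cells. LIFR, also such a chain, had 32.4, 15.5 and 18.6 CPM in BBOX1 xenografts, against 48.1, 50.5 and 46.2 CPM in BBOX1 cells.

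**Figure D5:**
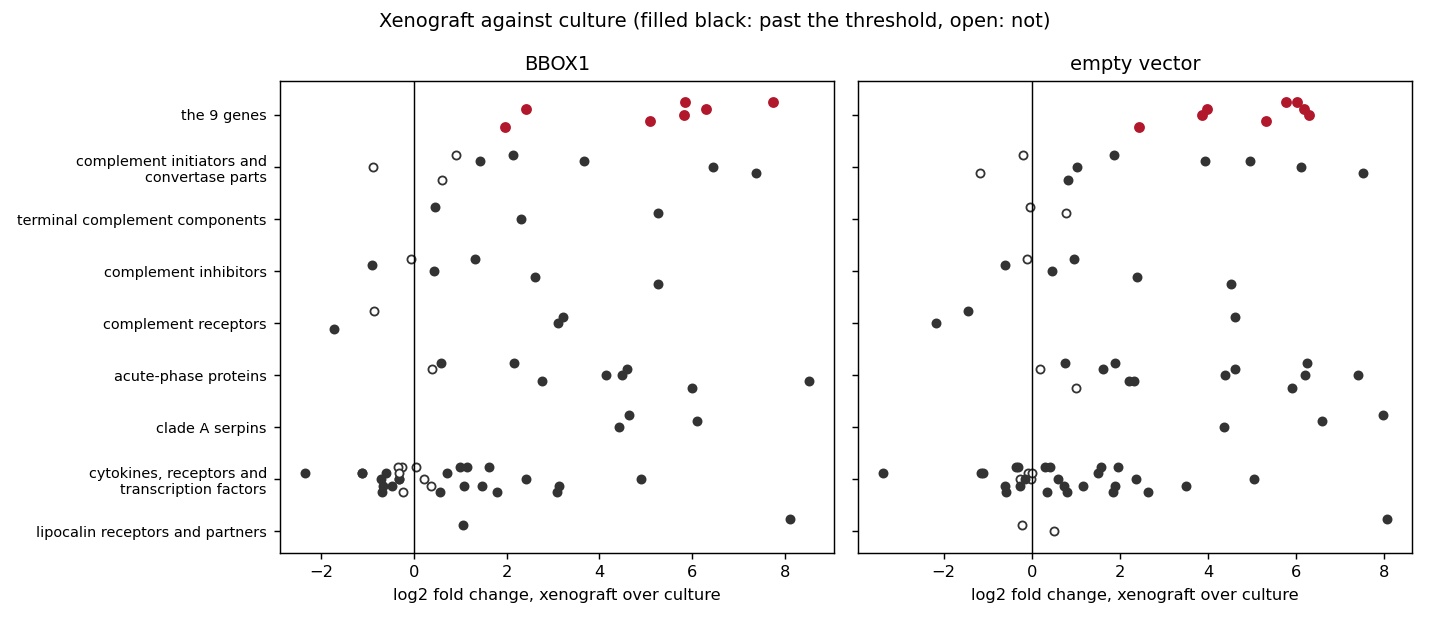
Log2 fold change of xenograft over culture (horizontal axis) for the tested members of the 9 genes (red) and of each other list (black; filled where the adjusted p was under 0.05, open where not), with BBOX1 at the left and the empty vector at the right. The 9 genes lie to the right of 0 in both panels, and points of transcripts near 0 counts in culture are fitted values that depend on the prior count.

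Between BBOX1 and empty-vector xenografts 0 of 69 tested genes of these lists rose and 7 fell by edgeR's quasi-likelihood test, beside 1.91% and 3.63% of all genes tested. At an unadjusted p under 0.05, 8 were higher and 14 lower, and DESeq2 called 2 higher. CEBPB, a transcription factor that drives many acute-phase genes, had 68.9, 79.4 and 81.5 CPM in BBOX1 xenografts, against 117, 139 and 140 CPM in empty-vector xenografts. The groups did not overlap (log2 -0.78, SE 0.12, adjusted p = 0.00648), and the call held with each library left out. SOCS3, a feedback inhibitor of cytokine signalling through STAT3, had 19.1, 20.3 and 23.1 CPM in BBOX1 xenografts, against 36.7, 36.9 and 32.7 CPM in empty-vector xenografts (log2 -0.76, SE 0.13, adjusted p = 0.0102). It was not called without replicate 2 of the empty-vector xenografts (adjusted p = 0.069).

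IL6R, the receptor of IL6, averaged 7.93 ± 1.40 CPM in BBOX1 xenografts against 13.7 ± 0.854 CPM in empty-vector xenografts (log2 -0.78, SE 0.18, adjusted p = 0.0364). C2, the partner of C4 in the classical convertase and the neighbour of CFB, averaged 2.69 ± 1.24 CPM in BBOX1 xenografts against 7.30 ± 2.30 CPM in empty-vector xenografts (log2 -1.43, SE 0.36, adjusted p = 0.0445). LBP, the lipopolysaccharide binding protein, had 0.206, 0.206 and 0.192 CPM in BBOX1 xenografts, against 6.33, 2.29 and 0.708 CPM in empty-vector xenografts (log2 -3.88, SE 0.80, adjusted p = 0.0225). These 3 calls were each lost with single libraries left out: IL6R and C2 without replicate 2 or 3 of the BBOX1 xenografts or any empty-vector xenograft (adjusted p = 0.0632 to 0.167 and 0.0504 to 0.198), and LBP without replicate 2 or 3 of the BBOX1 xenografts or replicate 1 of the empty-vector xenografts (adjusted p = 0.0549 to 0.112). The other 2 were SERPINA5, given above, and OSMR, the oncostatin M receptor, named after its value was seen (log2 -0.57, adjusted p = 0.0487). The OSMR call was lost without replicate 2 or 3 of the BBOX1 xenografts or any empty-vector xenograft (adjusted p = 0.0935 to 0.213).

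In culture 4 of 53 tested genes of the lists rose with BBOX1 and 8 fell, beside 8.53% and 7.86% of all genes tested, and a fit of all 12 libraries called 0 of either (edgeR; the fit of cells alone had 8 and 11 at an unadjusted p under 0.05). NFKB2, an NF-kappaB subunit, averaged 83.5 ± 1.25 CPM in BBOX1 cells against 67 ± 4.2 CPM in empty-vector cells (log2 0.32, SE 0.05, adjusted p = 3.05e-06). LIFR and IL6ST, receptor chains for cytokines of the IL6 family, fell, at log2 -0.32 (SE 0.05, adjusted p = 1.72e-05) and -0.19 (SE 0.04, adjusted p = 0.000155). CP rose by log2 0.20 (SE 0.05, adjusted p = 0.00767) and CLU fell by 0.35 on the log2 scale (SE 0.09, adjusted p = 0.00398).

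Markers of other cell types were read beside these results. Macrophage markers summed to 1.85 to 3.64 CPM in BBOX1 xenografts, 3.16 to 4.01 CPM in empty-vector xenografts, 2.26 to 3.63 CPM in BBOX1 cells and 3.66 to 4.88 CPM in empty-vector cells, with C1QB, C1QC, TYROBP and LYZ at 0 counts in each group. Neutrophil markers summed to at most 1.40 CPM in BBOX1 xenografts and 3.26 CPM in empty-vector xenografts, and at most 0.0741 CPM in BBOX1 cells and 0.0599 CPM in empty-vector cells, with S100A8, S100A9, MPO and CXCR2 at 0. This low sum was thus higher in xenografts. With the empty vector 2 of 2 tested neutrophil markers, LTF and CSF3R, rose, beside 35.5% of all genes tested. Each had 0 counts in empty-vector cells, so it passed the filter only through the xenografts and could not have been called lower. Endothelial markers summed to at most 3.40 CPM in any library, with CDH5 at 0. Hepatocyte markers summed to 52.6 to 54.7 CPM in BBOX1 xenografts, 57.2 to 62.6 CPM in empty-vector xenografts, 42.6 to 50.9 CPM in BBOX1 cells and 56.9 to 59.3 CPM in empty-vector cells, mostly CPS1, with APOB at 0. Of these TTR and F2 rose in xenografts with BBOX1 (3 tested), and F2 rose and CPS1 fell with the empty vector (2 tested). TTR had 0 counts in BBOX1 cells and passed the filter only through the xenografts.

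Fibroblast markers were also higher in xenografts as a sum, though not each of them. They summed to 256 to 378 CPM in BBOX1 xenografts and 249 to 443 CPM in empty-vector xenografts. The sums were 10.4 to 12.3 CPM in BBOX1 cells and 12.1 to 13.9 CPM in empty-vector cells. In each kind of xenograft 5 of 10 were at 1 CPM or more. From culture to xenograft 4 of 6 tested markers rose and 0 fell with BBOX1, beside 36.1% and 32.1% of all genes tested. With the empty vector 5 of 7 rose and 2 fell, beside 35.5% and 33.1%. Those 2 were PDGFRB (log2 -1.82, adjusted p = 0.00574 by edgeR's quasi-likelihood test) and THY1 (-1.09, adjusted p = 0.0266). COL3A1 and FAP, which rose with both vectors, had 6 and 0 counts in BBOX1 cells and 1 and 2 in empty-vector cells. They passed the filter only through the xenografts. COL1A1 and COL3A1 carried the sum, while COL1A2 had 3 and DCN 1 count in BBOX1 xenografts and 7 and 0 counts in empty-vector xenografts. Between BBOX1 and empty-vector xenografts 1 of 5 tested fibroblast markers was called: LUM fell, at 2.65 CPM in BBOX1 xenografts against 21.4 CPM in empty-vector xenografts (log2 -3.00, SE 0.43, adjusted p = 0.00372), and of the neutrophil list LTF fell, at 0.222 CPM in BBOX1 xenografts against 1.41 CPM in empty-vector xenografts (log2 -2.60, SE 0.62, adjusted p = 0.0383). Of the hepatocyte list TTR rose, at 2.35 CPM in BBOX1 xenografts against 0.672 CPM in empty-vector xenografts (log2 1.82, SE 0.42, adjusted p = 0.0333). The LTF and TTR calls were lost without replicate 2 or 3 of the BBOX1 xenografts or any empty-vector xenograft (adjusted p = 0.0518 to 0.144 and 0.0541 to 0.174). In culture PECAM1 of the endothelial list and CPS1 fell with BBOX1. Whether mouse reads were removed is not given in the sources used here, and the part of host RNA in the rise of the 9 genes was not tested, nor was that of other cell types in the SERPINA1 difference.

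Genes whose pattern over the 12 libraries was most like each member were found by the root mean square difference of centred log2 CPM among 13025 protein-coding genes at 1 CPM or more in some group. For SERPINA1 they were SERPINF1, at 0.20 log2 units, and SLC7A7, at 0.24. SERPINF1, which encodes an anti-angiogenic serpin, had 10.4, 14.2 and 12.2 CPM in BBOX1 xenografts, against 30.9, 34.5 and 37.7 CPM in empty-vector xenografts. SLC7A7, an amino acid transporter, had 103, 79.8 and 83.8 CPM in BBOX1 xenografts, against 255, 291 and 206 CPM in empty-vector xenografts. Likeness to SERPINA1 over the same libraries chose both, so their levels are a description.

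Among the 2 nearest were MMP7 for C3 (0.41) and for C1R (0.30), and ANGPTL4 for C1S (0.31). Among the 9 genes themselves C3 and C1S were 0.30 apart, C1R and C1S 0.34 and C3 and C1R 0.44. Since levels in these groups chose the 9 genes, their closeness to each other is a description and nothing is read from it. CFI had SLC6A8 (0.13), CFB had AQP3 and BTBD16 (both 0.43), and LCN2 had JUP (0.31) and HSPB7 (0.34). SERPING1 and SERPINA3 rested on too few counts for their nearest genes, PXYLP1 and MGAT4A for SERPING1 and NEFL and GAREM1 for SERPINA3, to be read. The libraries share depth and setting, which such likeness includes.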

How the data were processed

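Polyadenylated RNA of 12 libraries was analysed; sample titles gave the groups and replicate numbers. The authors deposited raw counts of reads for each gene, as whole numbers with no scaling. Per the submitters' processing notes, they used fastp, STAR, featureCounts and DESeq2 with hg38. Not given in the sources used here are tool versions, the gene annotation and the handling of mouse reads. Each of the 58735 identifiers matched GENCODE 29, whose exon lengths gave TPM.

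Counts were fitted with edgeR 4.0.16 in R 4.3.3: TMM, filterByExpr with a minimum count of 10, the quasi-likelihood F test, Benjamini-Hochberg adjustment over all genes and a threshold of 0.05. The SE of a log2 fold change is its size over the square root of F. Fits used the 2 groups compared, and the difference between settings used all 12 libraries. Scripts were tested on simulated data. The genes, lists and motifs were chosen with earlier results of these data known. Of each other list, up to 3 genes of smallest p past the threshold are named per comparison, of marker lists those of highest xenograft CPM, and per member the 2 nearest genes; some of these are not reported here. Alternatives were DESeq2 size factors, DESeq2 1.42.0, no filter, a replicate block, 1 fit of 12 libraries (BBOX1 against empty vector) and each library left out.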

Additional observations from a re-analysis of the deposited data

Results flagged for a closer look

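The effect of BBOX1 differed between xenografts and culture, by a test of the difference itself in all 12 libraries, for 4 genes of the lists. CEBPB had a log2 difference, xenografts minus culture, of -0.81 (adjusted p = 0.00348, edgeR), with 3 of 3 BBOX1 xenografts below the empty-vector xenografts and overlap in culture; it was called with each library left out. SOCS3 had -0.58 (adjusted p = 0.0246), and was not called without replicate 1 or 2 of the BBOX1 cells, without any 1 empty-vector cell library or without replicate 2 of the empty-vector xenografts (adjusted p = 0.057 to 0.0807).

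CLU had 0.73 (adjusted p = 0.0312): it averaged 594 CPM in BBOX1 xenografts against 456 CPM in empty-vector xenografts, and 15.7 CPM in BBOX1 cells against 20 CPM in empty-vector cells. Of the 12 fits without 1 library, it was called without replicate 1 or 2 of the BBOX1 xenografts or replicate 1 of the empty-vector xenografts, and in the others had an adjusted p of 0.0664 to 0.0937. LBP had -3.49 (adjusted p = 0.0495), rests on 9 counts in BBOX1 xenografts and 149 in empty-vector xenografts, and was lost in 10 of the 12 fits without 1 library (adjusted p = 0.0629 to 0.122).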

How the results depend on the processing

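Of 418 values of the 9 genes under alternatives, 391 kept their direction and side of the threshold, 2 lost a call, 8 gained 1 and 17, none of them called, changed sign; of 701 values of other named genes 614 kept theirs and 87 lost a call. Left out are 4 values with no adjusted p from DESeq2 (C1R, C1S and SAA1 in culture and SERPING1 in the difference between settings). Totals of 13729031 to 26758712 counts limit what can be said of SERPING1, SERPINA3 and of LCN2 and CFB in culture. For SERPINA3 and CFB the unknown counting of reads in shared exons does so as well. In culture, the fit of all 12 libraries left 1 gene higher and 1 lower (1276 and 1176 in the fit of cells alone), 0 of the 9 genes and 0 other pathway genes either way. In xenografts the counts of genes higher and lower (308 and 586) were 731 and 1002 with DESeq2, 797 and 1408 with no filter, and 1563 and 2105 in the fit of all 12 libraries; of the 9 genes 2, 2 and 3 were called, and of other pathway genes 2, 2 and 6 rose, with 11 falling with no filter and 13 in the 12-library fit. For xenograft against culture with BBOX1, 19 other pathway genes fell with no filter. For the difference between settings (326 higher and 552 lower), DESeq2 gave 605 and 1088 and no filter 570 and 1092; 2 other pathway genes rose with either, 5 fell with DESeq2 and 7 with no filter, and no filter called 2 of the 9 genes. The cause of these changes was not tested.

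Same-numbered libraries did not deviate together (correlations of -0.083 to 0.037), so the numbers are not taken to pair samples. With the replicate block, 103 genes were higher and 352 lower in xenografts, 1 other pathway gene rose and 4 fell, 176 genes were higher in the difference between settings, and C2, IL6R and the LBP difference were not called (adjusted p = 0.0852, 0.0767 and 0.08), nor were OSMR, LTF and TTR (0.0676, 0.0567 and 0.0653); the calls of the 9 genes were the same.

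With each library left out, other pathway genes that rose in culture numbered 2 to 4. In xenografts genes higher ranged from 22 without empty-vector replicate 2 to 1854 without BBOX1 replicate 1, genes lower from 153 without BBOX1 replicate 3 to 2447 without BBOX1 replicate 1, the 9 genes called from 1 to 2, and other pathway genes that rose from 0 to 7 and fell from 2 to 16. With BBOX1, other pathway genes that fell between xenograft and culture ranged from 11 to 18. In the difference between settings, genes higher ranged from 63 to 1432 and lower from 206 to 2750, the 9 genes called from 1 to 2, and other pathway genes that rose from 0 to 4 and fell from 1 to 16; each upper end came without BBOX1 xenograft replicate 1.

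The 17 sign changes were in 8 log2 values. With each library left out, in culture C1S ranged between -0.043 and 0.30, and in xenografts C1R ranged between -0.39 and 0.11 and SERPING1 between -1.29 and 0.20. For the difference between settings CFB ranged between -0.78 and 0.33, C1R between -0.25 and 0.23 (-0.033 with the replicate block), C1S between -0.069 and 0.28, SERPING1 between -1.97 and 2.74 and LCN2 between -1.36 and 3.38.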
